A study of Mus musculus with 48 samples.

Results

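Removal of the testes was examined in the livers of mice that carry XX chromosomes. The samples were all libraries with the genotype XX;SryTg, which are 12 of the 48 deposited, 6 from mice with the label HFD and Gonadectomy (XX Te GDX, here called castrated) and 6 with the label HFD and Intact gonads (XX Te Intact, here called intact). All 12 mice came from the FCG model, in which the testis-determining gene Sry has been lost from the Y chromosome and acts as an autosomal transgene, so that testes form with XX as well as with XY chromosomes. Castrated and intact mice therefore shared the transgene, the XX chromosomes and a high-fat diet (HFD) with 60% of calories from fat, started at 15 to 17 weeks of age. Surgery took place at 75 days of age, well before the diet. The castrated mice were fed the HFD for 15 weeks and the intact mice for 11 weeks by the sample descriptions, which puts collection at 30 to 32 and 26 to 28 weeks of age. The study's methods give other durations, also longer for the castrated mice, and name an intact gonad cohort and a GDX cohort. Castration, cohort, age at collection and time on the diet therefore differed together and cannot be told apart. For comparison, 6 XX Ov GDX and 6 XX Ov Intact mice (genotype XX, ovaries) and 6 XY Te GDX and 6 XY Te Intact mice (genotype XY-;SryTg, testes) were taken from the same series, and these also had 15 weeks of HFD after GDX and 11 weeks when intact. XX testes have no Y chromosome and do not make sperm, and the FCG mice with testes are a model of testicular hormones, not of the complete male.

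Many liver genes of the mouse differ between the sexes because the pituitary releases growth hormone (GH) in separate pulses in males and almost continuously in females. Testicular androgen sets the male pulse pattern, each pulse activates the transcription factor STAT5B in hepatocytes, and regulators such as BCL6 in males and CUX2 in females then repress genes of the other sex. Cytochromes P450, sulfotransferases, the major urinary proteins (Mup genes) and transporters of bile acids and organic anions are among the genes known for this bias.

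Reads counted on genes numbered 13106960 to 17886094 in the castrated mice and 16227797 to 19423492 in the intact mice. At these depths 3 reads, the smallest count taken as shown, correspond to 0.155 to 0.229 CPM (the reads of a gene scaled to a common total over all genes), which reflects counting error alone. The share of reads outside annotated genes was 8.65% to 10.04% in castrated and 3.52% to 5.06% in intact mice, with no overlap (difference in means 4.80 points, exact two-sided permutation test, p = 0.00216, the smallest this design allows). The comparison groups were apart in the same way, at 8.52% to 10.06% in XX Ov GDX and 3.47% to 6.20% in XX Ov Intact mice. In XY Te mice this share was 10.1% to 11.28% after GDX and 3.52% to 5.36% when intact. Reads matching several places, which were left out of the counts, made up 9.61% to 10.8% in castrated and 11.8% to 14.3% in intact mice, also without overlap (exact permutation test, p = 0.00216), and this bears on genes with close paralogs. More genes had at least 1 read in the castrated mice (median 21968 against 20818, exact permutation test, p = 0.00649). The Xist RNA of the inactive X was present in all 12 mice, at 851 to 1203 CPM in castrated and 331 to 755 CPM in intact mice. Though these ranges did not overlap, Xist did not pass between castrated and intact mice in edgeR's quasi-likelihood test. Of the Y-linked genes, Ddx3y, Eif2s3y, Uty and Kdm5d reached 4.19, 4.26, 2.10 and 1.08 CPM in intact mouse 4, against medians of 65.1, 109, 26.1 and 19.7 CPM in XY Te Intact mice, and stayed at or below 1.51, 0.958, 0.157 and 0.274 CPM in the castrated mice. Uty passed the test between castrated and intact mice (log2 fold change -2.87, adjusted p = 0.014 in edgeR's quasi-likelihood test), but without intact mouse 4 its value was -0.12 and no longer passed. The hepatocyte gene Alb (albumin) was abundant in every library, at 47890 to 93820 CPM.

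Between castrated and intact mice, 5718 of the 15414 genes tested (37.1%) differed at an adjusted p under 0.05 (quasi-likelihood test of edgeR, Benjamini-Hochberg adjusted). Of these, 2838 (18.4% of genes tested) were higher and 2880 (18.7%) were lower in castrated mice, and the median log2 fold change over all genes was 0.05. A change above 2-fold was found for 780 of the higher and 737 of the lower genes. Every castrated mouse lay above every intact mouse for 1328 genes (8.62%) and below for 1547 genes (10%). In a principal component analysis of the 12 libraries, the first component (50.8% of the variance) placed the castrated mice between 23.3 and 34.9 and the intact mice between -44.5 and -2.99. Intact mouse 1 was the intact library nearest to the castrated ones. With the share of reads outside genes added to the model as a covariate, 954 genes passed, 278 of them among the 5718. That share did not overlap between castrated and intact mice, so its part and that of castration cannot be told apart.

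The regulators of GH-dependent sex bias were examined first. Cux2, a repressor of male-biased genes in female liver, had 13.3 to 71.0 CPM in castrated mice (median 20.8) and 0.242 to 2.17 CPM in intact mice (median 0.551). Each castrated mouse had more Cux2 than any intact mouse, and the log2 fold change was 5.03 (SE 0.59, adjusted p = 3.97e-08 in edgeR's quasi-likelihood test). The castrated values overlapped those of mice that had ovaries, which were 9.30 to 42.2 CPM in XX Ov Intact and 10.8 to 44.6 CPM in XX Ov GDX mice. Tox, another female-biased regulator, also rose without overlap (1.10, SE 0.18), and Trim24, a repressor found in hepatocytes, rose with overlap (0.66, SE 0.17). Bcl6, the repressor of female-biased genes in males, ranged from 13.9 to 44.0 CPM in castrated mice (median 18.4) and from 15.1 to 80.8 CPM in intact mice (median 33.0). Its fall of -0.87 (SE 0.33, adjusted p = 0.033 by edgeR) came with groups that overlapped, and the call was lost without any 1 of castrated mice 2, 3, 4 or 6 or intact mice 3 or 5 (log2 fold changes from -0.84 to -0.59). Of the 15 regulators listed, 8 were higher and 1 was lower, with a median of 0.38, against 18.4% higher and 18.7% lower over all genes. That list is broader than sex-biased genes and also holds Hnf4a, Foxa1, Foxa2, Onecut1, Ezh1, Ezh2, Zhx2, Zfp809, Nfya, Nfyb and Nfyc. Beside Cux2, Tox and Trim24, the higher genes were Foxa2 (0.76), Nfya (0.38), Nfyc (0.38), Ezh1 (0.38) and Zhx2 (0.27). None of the 15, Cux2 (3.58) and Tox (0.67) included, passed with the share of reads outside genes as a covariate, and their median turned to -0.24.

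Along the GH pathway, 6 of 14 tested genes were higher and 1 was lower after castration (median 0.28), against 18.4% higher and 18.7% lower over all genes. Cish, a feedback inhibitor that STAT5 induces, had 4.60 to 15.6 CPM in castrated mice (median 8.50) and 1.07 to 4.61 CPM in intact mice (median 1.90). The groups overlapped only in that intact mouse 1 (4.61 CPM) lay just above castrated mouse 3 (4.60 CPM), and the log2 fold change was 1.96 (SE 0.46, adjusted p = 0.00125 in edgeR's quasi-likelihood test). Socs2 (0.33, adjusted p = 0.437 by edgeR) and Socs3 (-0.05, adjusted p = 0.92), of the same list, did not pass. Prlr, the receptor of prolactin and counted among the 6, was at 220 to 522 CPM against 66.8 to 180 CPM, an increase of 1.27 (SE 0.21, adjusted p = 1.37e-05 by edgeR) with no overlap. Igfals, which holds IGF1 in the circulation, rose by 0.78 (SE 0.18), and Stat5b itself by 0.38 (SE 0.10). Ghr, the GH receptor, was the gene of this list that fell, from 678 to 993 CPM in intact mice to 561 to 677 CPM in castrated mice (-0.44, SE 0.12). Igf1, the main GH-dependent hormone of the liver, rose by 0.32 (SE 0.13, adjusted p = 0.0441 by edgeR), a call that did not pass without any 1 of 7 of the 12 mice. Under the same covariate none of the 14 genes passed (median 0.13), Cish (1.65) and Prlr (0.55) included.

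The estrogen receptor alpha gene, Esr1, was higher in castrated mice. It had 34.4 to 58.8 CPM in castrated mice (median 40.0) and 13.03 to 19.4 CPM in intact mice (median 15.5). The groups did not overlap, and the log2 fold change was 1.40 (SE 0.18, adjusted p = 2.78e-07 in edgeR's quasi-likelihood test). Of the 6 steroid receptor genes tested, 2 were higher and 1 was lower, against 18.4% higher and 18.7% lower over all genes. Under that covariate none of the 6 passed, and Esr1 was at 1.03.

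Promoter sequences were read from RefSeq (GRCm38.p6) for genes of these lists and for the genes with the largest changes, as the 250 bases before and 50 bases after the annotated start. The letters TTCNNNGAA, the palindrome to which STAT5-type factors bind and which reads the same on both strands, were present in 2726 of 32851 promoters (8.30%). Among the promoters found for the listed genes, they occurred in 5 of 22 for the GH pathway and 3 of 24 for the regulators. The counts were 5 of 33 for female-biased genes, 2 of 18 for male-biased genes and 0 of 14 for major urinary proteins. The sequences below are shown because they hold the letters in genes whose values are described here, with each match in capitals. Bcl6 holds 3 matches, which begin at -168, -122 and -88 from the start, and Cish holds 2, which begin at 1 and 12. The female-biased genes Sult3a1, A1bg and Slc22a26 hold 1 each (-109, -84 and -141), and Prlr holds 1 at -110 in 1 of its 3 annotated promoters. A match describes the letters only and does not show binding.
Bcl6 (chr16:23981234-23981533, strand minus): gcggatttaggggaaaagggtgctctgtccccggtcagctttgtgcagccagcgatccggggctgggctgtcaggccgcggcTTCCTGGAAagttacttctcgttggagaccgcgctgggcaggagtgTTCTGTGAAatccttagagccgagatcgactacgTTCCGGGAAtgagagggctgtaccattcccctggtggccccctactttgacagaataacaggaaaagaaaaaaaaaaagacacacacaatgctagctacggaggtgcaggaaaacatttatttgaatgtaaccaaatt
Cish (chr9:107296409-107296708, strand plus): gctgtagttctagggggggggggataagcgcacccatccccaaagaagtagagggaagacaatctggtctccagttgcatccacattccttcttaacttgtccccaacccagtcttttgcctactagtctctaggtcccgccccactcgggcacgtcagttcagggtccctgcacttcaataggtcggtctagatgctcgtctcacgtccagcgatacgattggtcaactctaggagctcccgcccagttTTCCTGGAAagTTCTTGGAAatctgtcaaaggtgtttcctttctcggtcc
Prlr (chr15:10223656-10223955, strand plus): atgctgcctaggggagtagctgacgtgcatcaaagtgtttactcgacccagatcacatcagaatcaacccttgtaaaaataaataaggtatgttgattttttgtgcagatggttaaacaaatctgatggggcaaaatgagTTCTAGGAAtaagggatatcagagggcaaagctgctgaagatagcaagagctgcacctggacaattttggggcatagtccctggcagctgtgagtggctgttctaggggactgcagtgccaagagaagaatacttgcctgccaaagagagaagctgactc
Sult3a1 (chr10:33857472-33857771, strand plus): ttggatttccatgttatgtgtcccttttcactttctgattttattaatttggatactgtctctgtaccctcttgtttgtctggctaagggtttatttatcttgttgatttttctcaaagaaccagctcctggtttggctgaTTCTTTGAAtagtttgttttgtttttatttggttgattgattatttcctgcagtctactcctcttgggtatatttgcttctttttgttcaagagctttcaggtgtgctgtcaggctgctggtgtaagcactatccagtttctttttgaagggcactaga
A1bg (chr15:60921221-60921520, strand minus): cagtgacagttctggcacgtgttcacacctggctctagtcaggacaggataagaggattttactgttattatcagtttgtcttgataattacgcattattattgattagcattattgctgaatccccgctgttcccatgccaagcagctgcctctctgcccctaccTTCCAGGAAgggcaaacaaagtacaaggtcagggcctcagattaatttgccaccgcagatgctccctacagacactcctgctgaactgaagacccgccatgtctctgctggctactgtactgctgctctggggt
Slc22a26 (chr19:7802618-7802917, strand minus): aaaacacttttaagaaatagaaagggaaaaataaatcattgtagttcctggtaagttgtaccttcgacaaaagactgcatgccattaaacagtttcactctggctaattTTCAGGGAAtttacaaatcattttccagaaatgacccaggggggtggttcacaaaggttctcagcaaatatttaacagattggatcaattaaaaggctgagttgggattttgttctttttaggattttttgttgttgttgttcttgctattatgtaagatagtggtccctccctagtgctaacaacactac

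Male-biased genes fell. Of 20 listed male-biased genes, 17 were lower and none was higher (median log2 fold change -1.83, against 0.05 over all genes), and 8 were lower without overlap. Their summed level was 625 to 1054 CPM in castrated mice and 1644 to 3519 CPM in intact mice. The castrated sums overlapped the 606 to 1176 CPM of XX Ov Intact mice. The lists share members, for example Slco1a1 and Cyp7b1 with bile acid genes. Cux2 and Prlr are shared between female-biased genes and the regulator and GH pathway lists above. All lists and their members were chosen with earlier results of these data known. Their counts therefore describe the members and are no independent test of a sex bias.

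Cyp4a12a, an arachidonic acid hydroxylase found in male liver, had 0.316, 0.615, 0.629, 1.04, 8.98 and 12.9 CPM in the 6 castrated mice and 31.3 to 109 CPM in the intact mice (median 47.0). All castrated mice were below all intact mice, and castrated mice 4 and 6 kept the most. The log2 fold change was -3.70 (SE 0.65, adjusted p = 3.93e-05 in edgeR's quasi-likelihood test). Its neighbour Cyp4a12b fell by 5.16 on the log2 scale, and reads may be exchanged between these near-identical genes. Elovl3, a fatty acid elongase named here after its values were seen, had 6.15 to 21.6 CPM in castrated mice (median 7.58) and 57.1 to 167 CPM in intact mice (median 101). It fell without overlap (-3.49, SE 0.37, adjusted p = 5.05e-09 by edgeR), and castrated mouse 4 again had the highest value of its group.

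Slco1a1, an uptake transporter of organic anions and bile acids, had 4.49 to 32.3 CPM in castrated mice (median 7.73) and 13.04 to 600.3 CPM in intact mice (median 364). The groups overlapped because intact mice 1 and 2 had 26.01 and 13.04 CPM, whereas the other intact mice had at least 312 CPM. The log2 fold change was -4.61 (SE 0.70, adjusted p = 5.8e-06 in edgeR's quasi-likelihood test). Hsd3b5, a male-specific steroid reductase, showed the same pair apart, with 0.364 and 0.204 CPM in intact mice 1 and 2, 2.10 to 63.0 CPM in the other intact mice and 0.063 to 0.942 CPM in castrated mice (-6.04, SE 0.92). Several of these Hsd3b5 values lie at or under the floor of 3 reads. Serpina1e, a male-biased member of the alpha-1-antitrypsin family, fell without overlap (-4.26, SE 0.71), from 89.6 to 460 CPM to 4.11 to 31.1 CPM, and can share reads with its paralogs.

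The major urinary proteins, which male mice excrete as carriers of scent molecules, fell as a family. All 17 tested members were lower (median -3.60) and 11 of them did not overlap. After ovariectomy in XX mice 12 of 17 were lower as well (median -2.16), with the family sum at 2215 to 16860 CPM in XX Ov Intact and 1218 to 1999 CPM in XX Ov GDX mice. The median of castration turned to 0.36 with the share of reads outside genes as a covariate. Summed over the family, the castrated XX Te mice had 1510 to 3424 CPM and the intact mice 6478 to 31030 CPM. The lowest intact sums belonged to mice 1 (6478 CPM) and 2 (13220 CPM), and the highest castrated sums to mice 4 (3424 CPM) and 6 (2915 CPM). Mup20, which encodes the pheromone darcin, had 67.5 to 360 CPM in castrated mice (median 266) and 999 to 8774 CPM in intact mice (median 4927). It was lower in all castrated mice (-4.49, SE 0.65, adjusted p = 2.12e-06 in edgeR's quasi-likelihood test). Mup14 (-5.26, SE 0.66) and Mup11 (-4.89, SE 0.85) also fell without overlap, Mup7 (-5.51) and Mup1 (-4.12) with overlap, and the pseudogene Mup-ps19 fell by 5.06. Members of this family are nearly identical in sequence, so the division of reads among them is uncertain, and reads that matched several places were not counted on any gene.

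**Figure D1:**
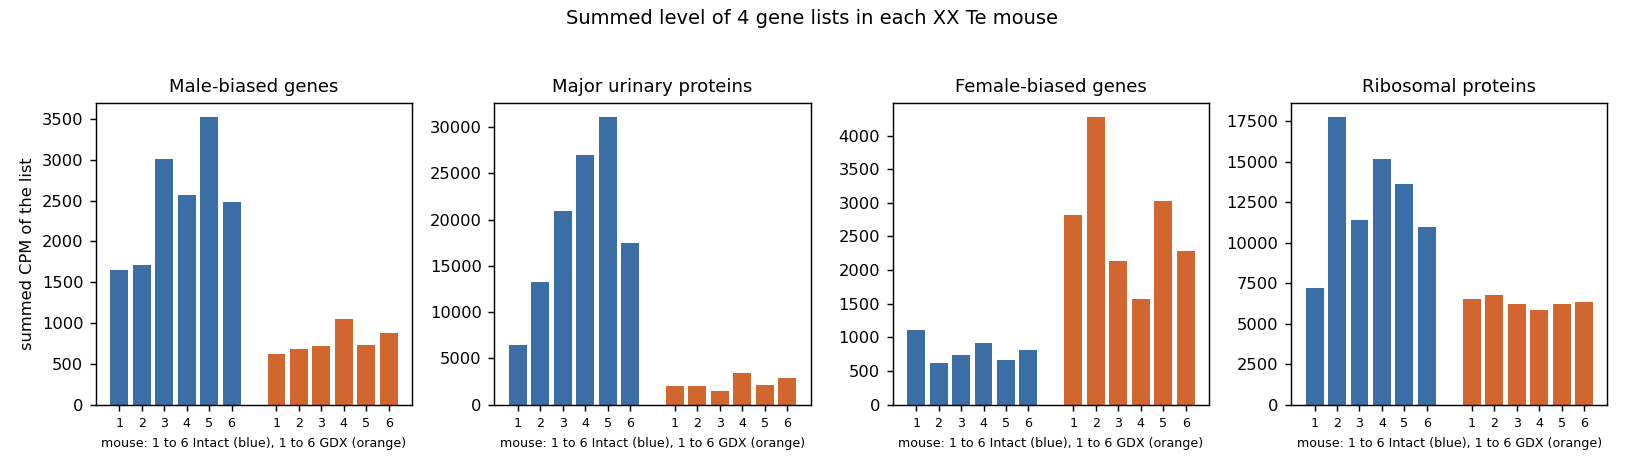
Summed CPM of 4 gene lists in each of the 12 XX Te mice, with intact mice in blue and castrated (GDX) mice in orange. The sums of the male-biased genes and of the major urinary proteins are lower in each castrated mouse than in any intact mouse, those of the female-biased genes are higher, and intact mice 1 and 2 have the lowest male-biased sums of their group (1644 and 1710 CPM).

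Female-biased genes rose. Of 33 tested members, 23 were higher and none was lower (median 2.18), and 11 rose without overlap. The 10 not called were Cyp3a41a, Cyp3a41b, Cyp3a44, Cyp3a16, Cyp2b10, Sult1e1, Sult3a2, Abcd2, Slc22a27 and Nipal1. The summed level was 1563 to 4268 CPM in castrated mice and 615 to 1104 CPM in intact mice. In XX mice with ovaries the sums were 3416 to 9158 CPM when intact and 2408 to 4239 CPM after ovariectomy. With the share of reads outside genes as a covariate, 16 female-biased genes were higher and none was lower, of which 12 were among the 23. Then 2 male-biased genes and none of the major urinary proteins passed. The female-biased members, too, were chosen with earlier results of these data known.

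Cyp2b13, a female-specific cytochrome P450, had 156 to 670 CPM in castrated mice (median 359) and 2.05 to 17.8 CPM in intact mice (median 5.30). All castrated mice were far above all intact mice, with a log2 fold change of 5.53 (SE 0.45, adjusted p = 3.81e-12 in edgeR's quasi-likelihood test). The castrated range overlapped the 78.9 to 380 CPM of XX Ov Intact mice.

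The Sult2a and Sult3a1 sulfotransferase genes varied widely among the castrated mice. Sult2a2 had 109, 263, 51.0, 2.60, 99.9 and 5.90 CPM in castrated mice 1 to 6 and 0.330 to 11.1 CPM in intact mice (median 0.850). Castrated mice 4 and 6, which kept the most Cyp4a12a, had the least Sult2a2, and intact mouse 4 lay above both. The log2 fold changes were 5.13 for Sult2a2 (SE 1.10), 6.24 for Sult2a5 (SE 1.44), 4.63 for Sult2a1 (SE 1.22), 4.58 for Sult2a3 (SE 1.32) and 3.96 for Sult3a1 (SE 1.02), with adjusted p between 0.000511 and 0.0064 in edgeR's quasi-likelihood test. In limma with weights per group, none of these 5 genes passed. Sult2a genes lie in a cluster of close paralogs, between which reads may be split.

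Among the genes with the highest changes, A1bg, a plasma glycoprotein gene with female bias, rose from at most 0.271 CPM to 0.836 to 6.78 CPM (4.78, SE 0.93). Slc22a26, an organic anion transporter, rose from 2.79 to 12.99 CPM to 28.6 to 141 CPM (3.82, SE 0.45, adjusted p = 3.75e-08 by edgeR). Eci3, an enoyl-CoA isomerase, and Fmo2, a flavin-containing monooxygenase, rose by 3.65 (SE 0.52) and 2.57 (SE 0.29). None of these 4 genes overlapped between castrated and intact mice. The other genes of the highest 10 were the noncoding or little-studied Gm16291 (3.48), B230319C09Rik (3.18) and Prkag2os1 (2.51) and the chaperone gene Dnajb3 (2.56), all at low levels. Prkag2os1 is antisense to a coding gene, and reads of the pair cannot be told apart without the strand. These 4 rose by 2.94, 2.31, 2.08 and 1.91 after ovariectomy as well.

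**Figure D2:**
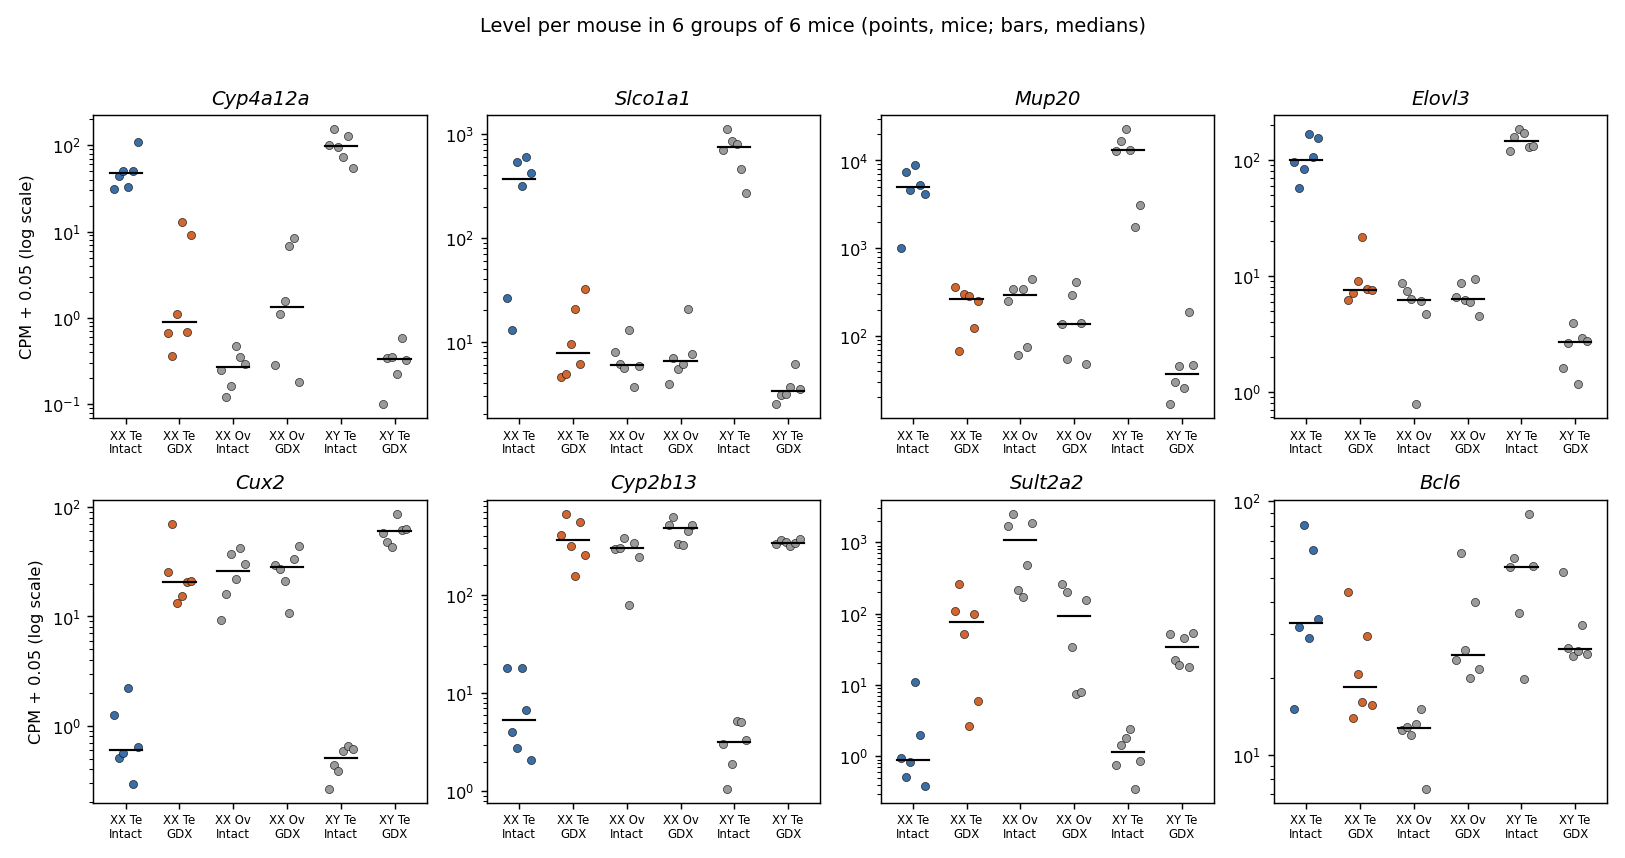
Level of 8 genes in each mouse (points) with the group median (bar), in CPM plus 0.05 on a log scale, for the XX Te, XX Ov and XY Te mice before and after GDX. Cyp4a12a, Mup20 and Elovl3 of castrated XX Te mice (orange) lie below all intact XX Te mice (blue), Cux2 and Cyp2b13 lie above, and Slco1a1, Sult2a2 and Bcl6 overlap.

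Whether the response to castration differed from that to removal of ovaries was tested as the difference between the 2 log2 fold changes in XX mice. The XX Te and XX Ov groups share no library, and both GDX groups had the longer diet. The difference passed for 144 of 15414 genes (0.934%) by the quasi-likelihood test of edgeR, Benjamini-Hochberg adjusted. The log2 fold change was higher for castration than for ovariectomy in 74 of them (0.48%) and lower in 70 (0.454%). Of the 144, 92 were also changed by castration, and in 91 of these the difference had the sign of the castration effect. By list, 20 of 33 female-biased genes had a higher log2 fold change for castration than for ovariectomy. It was lower for 7 of 20 male-biased genes and 2 of 17 major urinary proteins. The members of these lists were chosen with earlier results of these data known. Changes after ovariectomy entered these differences. Ovariectomy itself lowered 14 of the 33 female-biased genes and raised 3 (median -0.55), and raised 5 of the 20 male-biased genes and lowered 2. The count of 144 genes depended on the test, at 65 genes in limma with weights per group and 235 in DESeq2.

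Cyp4a12a and Bcl6 moved in opposite directions after the 2 operations. Cyp4a12a rose after ovariectomy by 3.67 (adjusted p = 0.00139 by edgeR), from 0.071 to 0.417 CPM to 0.131 to 8.43 CPM. These groups overlapped, since XX Ov GDX mice 1 and 6 (0.237 and 0.131 CPM) lay within the XX Ov Intact range. XX Ov GDX mice 4 and 5 had the most (6.83 and 8.43 CPM). Several of the low values were under the read floor given above, so the size of this rise rests on few reads. For Cyp4a12a the difference was -7.38 (SE 1.12, adjusted p = 5.58e-05 by edgeR). Bcl6 rose after ovariectomy by 1.41, from 7.29 to 15.1 CPM to 20.1 to 62.5 CPM, and the difference was -2.28 (SE 0.47, adjusted p = 0.00542). The sulfotransferases went the other way, since Sult2a2 fell after ovariectomy from 171 to 2518 CPM to 7.495 to 260.2 CPM and rose after castration. The differences of the 5 genes ran from 6.70 (Sult3a1) to 8.71 (Sult2a5). After both operations the medians of Sult2a2 were close, at 75.4 CPM in castrated and 93.6 CPM in ovariectomized XX mice.

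For other genes the ovariectomy effect did not pass and the difference did. The differences were 4.95 for Cux2 (SE 0.74, adjusted p = 4.93e-05 by edgeR), 4.78 for Cyp2b13 (SE 0.56, adjusted p = 8.73e-07) and 4.31 for Slc22a26 among the genes that rose. Among those that fell they were -3.79 for Elovl3 (SE 0.51, adjusted p = 8.79e-06), -4.89 for Slco1a1 and -4.01 for Mup20. The ovariectomy effects on these 6 genes lay between -0.49 and 0.75 and none passed. For Prlr (1.14, adjusted p = 0.0376 by edgeR) and Serpina1e (-3.72, adjusted p = 0.0342) the call was lost without 1 of several mice. The differences for Cyp4a12a, Bcl6, Slco1a1 and the sulfotransferases did not pass in limma with weights per group, while those for Cux2, Cyp2b13, Slc22a26, Elovl3 and Mup20 did.

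**Figure D3:**
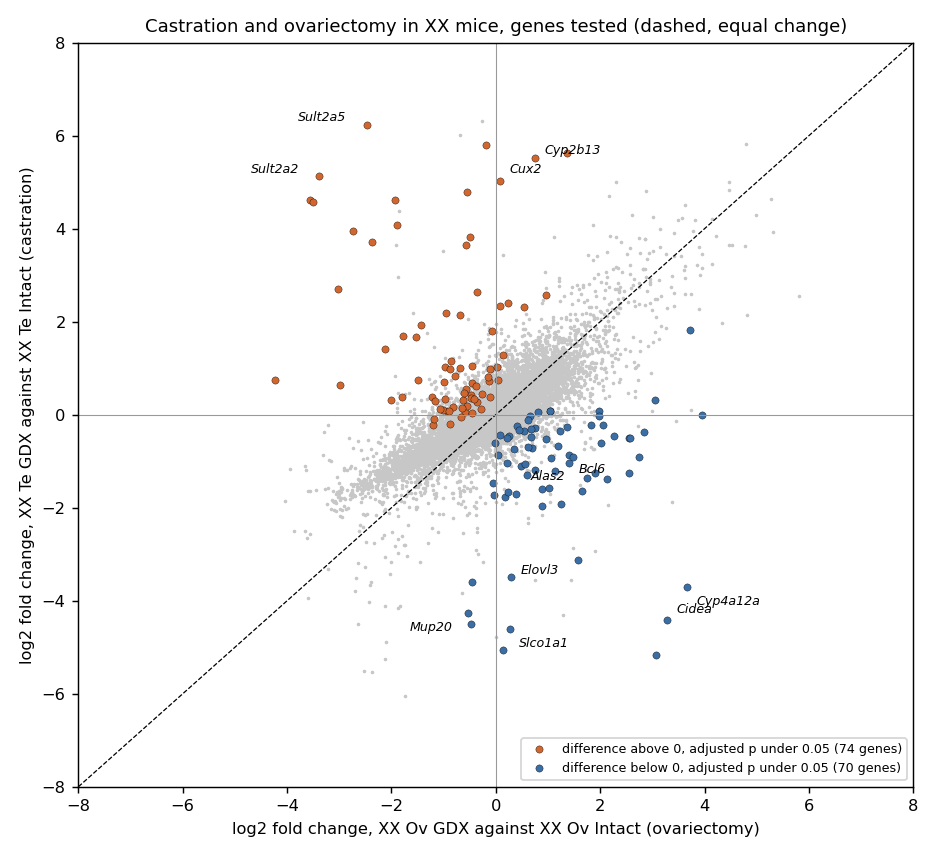
Log2 fold change of each tested gene after castration in XX Te mice (y axis) and after ovariectomy in XX Ov mice (x axis), with the 144 genes whose difference passed an adjusted p of 0.05 in colour and the dashed line where both changes are equal. Female-biased genes such as Cyp2b13 and Cux2 lie at the top near an ovariectomy value of 0, the Sult2a genes lie at the upper left, and Cyp4a12a and Cidea lie at the lower right.

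In lipid metabolism the changes were mixed, against 18.4% of genes higher and 18.7% lower over all genes. Of 22 lipogenic genes, 5 were higher and 5 lower (median 0.09), and the 10 calls fell to 4 without castrated mouse 5, 6 without intact mouse 4 and 5 without intact mouse 5. Me1, the malic enzyme that supplies NADPH, fell without overlap (-1.10, SE 0.19), from 189.5 to 365 CPM to 108 to 170 CPM. Scd1, the stearoyl-CoA desaturase, fell from 7472 to 15060 CPM to 2046 to 9227 CPM (-1.12, SE 0.42, adjusted p = 0.0315 by edgeR), a call lost without any 1 of castrated mice 4 or 5 or intact mice 4 or 6. Pnpla3, a lipid droplet hydrolase and retinyl esterase linked to fatty liver, had 0.137 to 2.09 CPM in castrated mice (median 0.627) and 0 to 0.767 CPM in intact mice (median 0.468). Its groups overlapped, several values were under the floor of 3 reads, and the change of 1.10 (SE 0.71, adjusted p = 0.218 in edgeR's quasi-likelihood test) did not pass.

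Of 22 genes of the lipid droplet and lipolysis, 7 were lower and 1 was higher (median -0.29), against 18.7% lower and 18.4% higher over all genes. Cidea, which fuses lipid droplets, was at 0 CPM in 4 castrated mice and 0.523 and 0.411 CPM in castrated mice 3 and 4, and at 0.733 to 7.71 CPM in intact mice. All castrated values were below the intact ones (-4.42, SE 0.80, adjusted p = 8.27e-05 by edgeR). With 0 CPM in 4 castrated mice, the size of this fall rests on few reads. The difference from ovariectomy was -7.70, and a higher Cidea level after ovariectomy entered it. Cidec, its relative, had 4.72 to 39.4 CPM in castrated and 17.7 to 98.1 CPM in intact mice, with overlap (-1.65, SE 0.49). Cidec rose after ovariectomy (1.66), and its difference was -3.30 (adjusted p = 0.00667 by edgeR). Fabp1, the liver fatty acid binding protein, fell by 1.22 on the log2 scale without overlap, from 5373 to 10890 CPM to 2784 to 3752 CPM, and did not pass with offsets for GC content and transcript length (-0.26). Plin4, a droplet coat protein, did not pass (0.69, adjusted p = 0.26).

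Fatty acid oxidation genes were 3 higher and 4 lower of 28 (4 calls without intact mouse 4), both below the 18.4% higher and 18.7% lower over all genes. Among them Cyp4a10, a PPARA target, rose without overlap (0.96, SE 0.26). No cholesterol synthesis gene rose and 3 of 25 fell, among them Insig1, a regulator of sterol sensing (-0.90, SE 0.22). In the list of the oxysterol receptor LXR, its partners and sterol efflux genes, 1 of 13 was lower and none higher. The one that fell was Nr1h3, which encodes LXR alpha itself (-0.56, adjusted p = 0.0126 by edgeR), chosen for naming after its value was seen, and no efflux target passed. Apolipoprotein and lipoprotein assembly genes were 3 higher and 4 lower of 21. Apob, the protein of very low density lipoprotein, rose by 0.61 (SE 0.19), and Apoc1, a small apolipoprotein, fell by 1.01. Both changes turned in sign with the share of reads outside genes as a covariate, and Apoc1 did not pass with the length offsets (-0.16).

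Steroid, xenobiotic and bile acid genes were next examined, against 18.4% higher and 18.7% lower over all genes. In steroid metabolism 8 of 23 genes were lower and 1 was higher (median -0.29). Cyp7b1, an oxysterol and steroid hydroxylase with male bias, fell without overlap from 57.1 to 158 CPM to 21.1 to 44.8 CPM (-1.65, SE 0.30, adjusted p = 6.31e-05 by edgeR), and Akr1c6, a 17-beta-hydroxysteroid dehydrogenase, fell from 1177 to 2689 CPM to 683 to 974 CPM (-1.26). Of 19 glutathione transferases, 4 were lower and 1 was higher, and 8 passed without castrated mouse 2 or without intact mouse 1. Gstp1, the pi-class enzyme that is higher in male liver, fell without overlap from 167 to 289 CPM to 48.4 to 135 CPM (-1.58, SE 0.23). Of 23 receptors and targets of the xenobiotic response, 7 were higher and 4 lower. Among them, the efflux pump gene Abcb1a (1.74, SE 0.28) and the aldehyde dehydrogenase gene Aldh1b1 (1.35, SE 0.23) rose without overlap, and both rose after ovariectomy too (1.51 and 1.08). In bile acid metabolism 4 of 22 genes were higher and 3 lower. Slco1a4, a transporter close to Slco1a1 in sequence, rose without overlap (1.47, SE 0.23), whereas Cyp7a1, the rate-limiting enzyme of bile acid synthesis, did not pass (0.84, SE 0.37, adjusted p = 0.0648).

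In the nitrogen and sugar metabolism lists rises outnumbered falls, against 18.4% of genes higher and 18.7% lower over all genes. After ovariectomy, 6 of 25 urea cycle and amino acid genes were higher and 7 lower, and 8 and 2 of 20 glucose genes. With the share of reads outside genes as a covariate on castration, 3 of these 25 genes were higher and none lower, and 1 and 1 of the 20. In the urea cycle and amino acid list 9 of 25 genes were higher and 2 lower (median 0.34), with Cps1, its entry enzyme, at 2363 to 5370 CPM against 835 to 2937 CPM (1.0, SE 0.21) and Asl, the argininosuccinate lyase, at 0.87 (SE 0.16). Glucose metabolism genes were 7 higher and 1 lower of 20. The one that fell, Pfkfb3, makes the activator of glycolysis and differed from its response to ovariectomy (-1.64, SE 0.37, adjusted p = 0.0129 by edgeR), with 3.23 to 8.92 CPM in castrated and 9.54 to 17.2 CPM in intact mice. In the taurine and methionine list 5 of 16 genes were higher and 1 was lower, namely Csad, which makes the taurine precursor hypotaurine (-1.85, SE 0.39). Of 15 pericentral and 12 periportal zonation genes, 4 and 2 were higher and 1 and 0 lower, and the 5 pericentral calls fell to 2 without intact mouse 6 and to 3 without any 1 of 6 others (castrated mice 2, 4 and 5 and intact mice 3, 4 and 5). Clock genes were 5 higher and 3 lower of 19, with Per3 at 1.14 (SE 0.18) and Bhlhe41 at -1.89 (SE 0.28), both without overlap. The hour of collection is not given in the labels, so its part in these values was not tested.

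Of 25 complement genes, 10 were higher and 3 lower (median 0.10), against 18.4% of genes higher and 18.7% lower over all genes. Among them 8 rose without overlap, against 8.62% of all genes. C3, the central component, had 8756 to 14220 CPM in castrated mice (median 10330) and 2911 to 5503 CPM in intact mice (median 4354). All castrated mice were higher (1.30, SE 0.21, adjusted p = 1.32e-05 in edgeR's quasi-likelihood test), and C3 also rose after ovariectomy (1.08). C6, a component of the membrane attack complex, fell without overlap from 65.9 to 147 CPM to 15.4 to 65.1 CPM (-1.73, SE 0.27), and C4a, the sex-limited protein gene that can share reads with C4b, fell with overlap (-1.59, SE 0.32). Both differed from the response to ovariectomy, by -1.70 (C6) and -2.47 (C4a). With the share of reads outside genes as a covariate, no complement gene passed.

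Acute phase genes were 7 higher and 2 lower of 25, against 18.4% of genes higher and 18.7% lower over all genes. The metallothioneins Mt1 and Mt2, which bind zinc and copper, rose by 1.74 (SE 0.45) and 1.82 (SE 0.54) with overlapping groups. Iron genes were 3 higher and 4 lower of 15, with 4 calls without intact mouse 2. Hamp2, a paralog of hepcidin, had 9.44 to 69.8 CPM in castrated and 2.56 to 17.6 CPM in intact mice (1.41, SE 0.52, adjusted p = 0.0309 by edgeR). That call was lost without castrated mouse 2 or without intact mouse 2 or 6, but Hamp2 fell after ovariectomy (-2.13) and the difference of 3.54 (SE 0.74, adjusted p = 0.00592) passed. Alas2, the erythroid enzyme of heme synthesis, fell without overlap from 76.6 to 101 CPM to 30.7 to 65.4 CPM (-1.09, SE 0.17), and differed from its response to ovariectomy (-1.58, SE 0.25, adjusted p = 9.53e-05 by edgeR). The erythroid markers, of which Alas2 is one, summed to 43.6 to 90.3 CPM in castrated and 90.8 to 125 CPM in intact mice, and their part was not tested. Of 22 interferon-stimulated genes 1 was lower. Genes of the fetal and imprinted list were 3 higher and 1 lower of 8, and those of the S100 and annexin list 2 higher and 5 lower of 18 (4 calls without intact mouse 2).

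**Figure D4:**
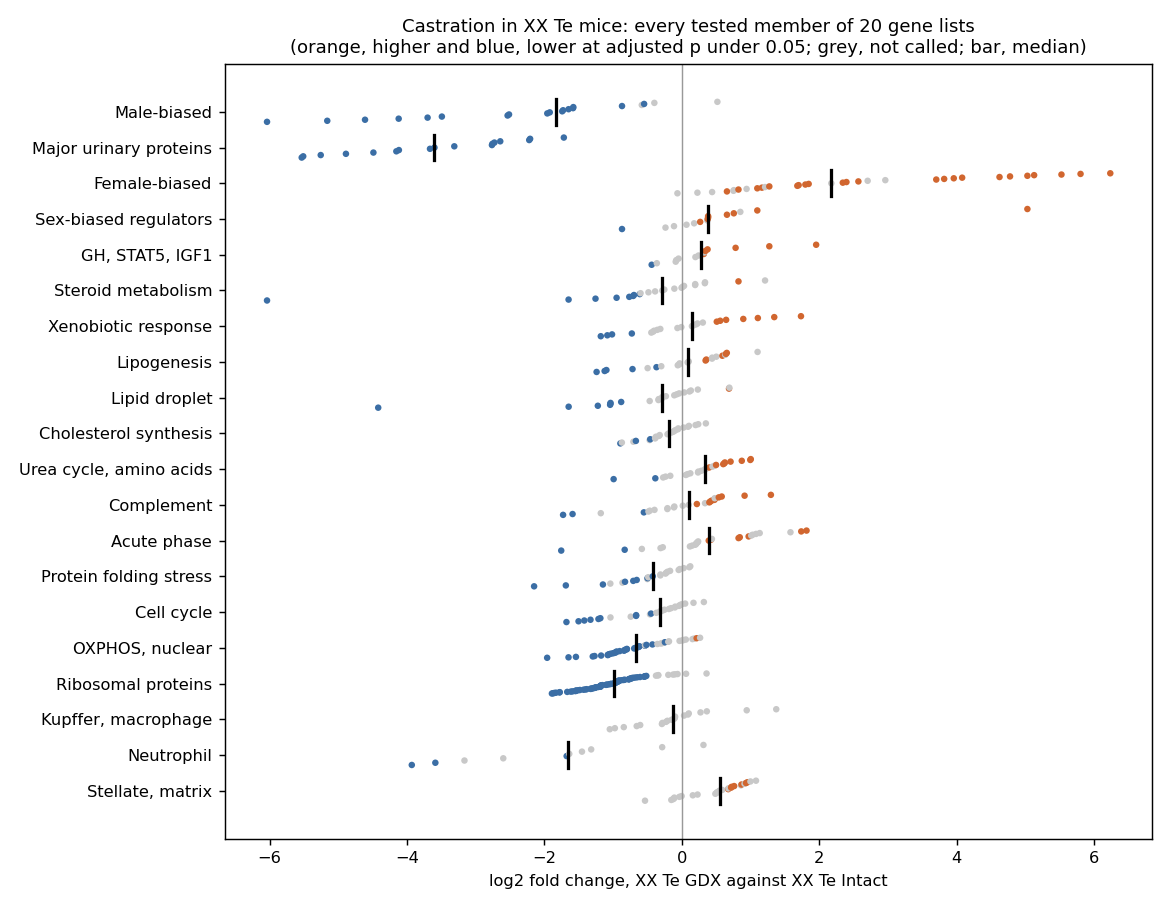
Log2 fold change after castration in XX Te mice (x axis) for each tested member of 20 gene lists, with members higher (orange) or lower (blue) at an adjusted p under 0.05, members not called (grey) and the list median (black bar). The medians of the male-biased genes (-1.83) and major urinary proteins (-3.60) lie farthest to the left and that of the female-biased genes (2.18) farthest to the right.

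Most ribosomal protein genes were lower. Of 75 ribosomal protein genes, 66 were lower and none was higher (median -0.99), for instance Rpl34, at 41.5 to 42.8 CPM in castrated and 59.2 to 258 CPM in intact mice (-1.88, SE 0.45). After ovariectomy in XX mice 73 of the 75 were lower (median -1.77), and after castration in XY mice 72 (median -1.50). Nuclear genes of oxidative phosphorylation were 31 lower and 1 higher of 46 (median -0.67), with Ndufa4, a subunit of the respiratory chain, at -1.96 (SE 0.43), and 2 of 13 mitochondrially encoded genes were lower, a count that was 1 when any 1 of 7 mice was left out. Both larger lists turned in direction with the share of reads outside genes as a covariate, with none of the ribosomal genes lower and 2 higher (median 0.99), and none of the nuclear oxidative phosphorylation genes lower and 8 higher (median 1.09). In the protein folding stress list 8 of 23 genes were lower and none was higher. Its lowest members were Asns, the asparagine synthetase (-2.15), and Manf, a secreted factor of the endoplasmic reticulum (-1.69, without overlap). Of 27 cell cycle genes, 9 were lower and none was higher. Most members of these last lists did not pass (15 and 18 genes), and over all genes 18.7% were lower. Ccne1, cyclin E1, was among the lower genes (-1.68, SE 0.23), from 1.94 to 3.25 CPM to 0.3798 to 1.10 CPM.

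The direction of change moved with transcript length. In the shortest quartile (up to 1903 bases) 6.85% of genes were higher and 37.6% lower, with a median of -0.30. In the longest quartile (4410 bases or more) 25.4% were higher and 7.13% lower, with a median of 0.22. Ovariectomy gave medians of -0.50 and 0.36 in the same quartiles. With offsets for GC content and length, 4037 of 13077 genes passed (30.9%), and the quartile medians lay between 0.03 and 0.04. Under these offsets 43 ribosomal protein genes were lower and 8 higher, 14 and 7 of the oxidative phosphorylation genes, and 4 and 0 of the cell cycle genes, and 16 male-biased and 16 major urinary protein genes were lower and 27 female-biased genes higher. The part of transcript length in the ribosomal result was not tested further. The share of genes whose castration effect differed from that of ovariectomy was 1.19% in the shortest and 0.826% in the longest quartile.

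**Figure D5:**
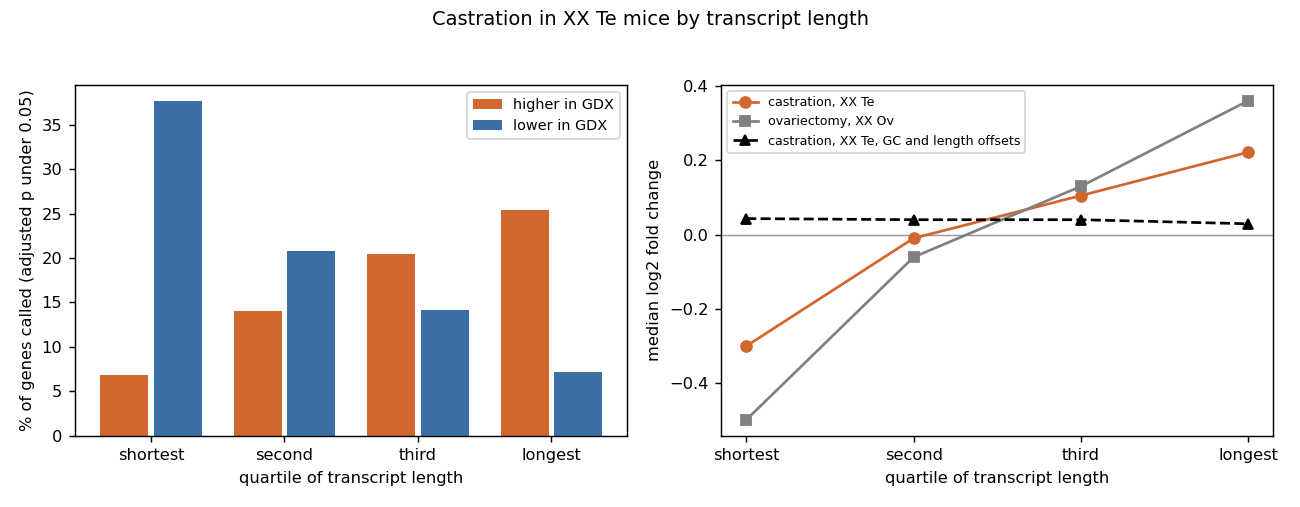
Share of genes higher (orange) and lower (blue) after castration in XX Te mice in 4 quartiles of transcript length (left, %), and median log2 fold change in the same quartiles for castration, for ovariectomy in XX Ov mice and for castration with GC and length offsets (right). Lower genes fall from 37.6% in the shortest to 7.13% in the longest quartile, and the medians with offsets lie near 0.

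Markers of other liver cell types were examined in the same libraries, against 18.4% of genes higher and 18.7% lower over all genes. In bulk liver, fewer cells of a type and less RNA per cell cannot be told apart. Hepatocyte markers were 3 higher and 3 lower of 11, and their sum was 102000 to 134100 CPM in castrated and 80600 to 137100 CPM in intact mice. None of 20 Kupffer cell and macrophage markers passed (edgeR's quasi-likelihood test), among them Timd4 (-1.05, adjusted p = 0.0807), Lyz2 (-0.98, adjusted p = 0.0578) and Gpnmb (1.38, adjusted p = 0.143). Stellate cell and matrix markers were 7 higher and none lower of 27 (sum 463 to 1159 against 435 to 760 CPM), though Col1a1 did not pass (1.08, adjusted p = 0.115 by edgeR). After ovariectomy in XX mice 15 of the 27 were higher and 1 lower (median 0.998), and after castration in XY mice 16 and 0 (median 0.915). With the share of reads outside genes as a covariate, 1 was higher and none lower after castration in XX mice (median -0.087). Neutrophil markers were 3 lower of 10, and their sum was 4.96 to 8.28 CPM in castrated and 4.91 to 60.3 CPM in intact mice, with Ly6g at 0 in all 12. S100a8, a neutrophil protein, reached 15.6 and 13.5 CPM in intact mice 2 and 4, 0.9701 to 2.91 CPM in the other intact mice and 0.079 to 0.732 CPM in castrated mice (-3.93, SE 1.09), S100a9 fell by 3.59, and neither passed with length offsets. Of 18 lymphocyte markers 2 were lower, among them Gzma (granzyme A, -2.16). Sinusoidal endothelial markers were 2 higher and 2 lower of 19, biliary markers 2 higher of 10, MHC class II genes 1 higher of 11 and erythroid markers 3 lower of 5. Without intact mouse 2, which had the highest sums of macrophage (1860 against 536 to 676 CPM in the other intact mice) and MHC class II genes (394 against 44.8 to 79.7 CPM), 7 MHC class II genes and 3 macrophage markers were higher, 11 stellate markers were higher and 1 lower, 1 lymphocyte and 1 erythroid marker were lower, and 2 endothelial markers were higher and none lower. Stellate calls fell to 4 without castrated mouse 3, biliary calls to 0 without intact mouse 3, and single mice moved the other counts of 4 or fewer by 1 or 2 genes. Median changes were -1.66 for neutrophil, -0.51 for lymphocyte and 0.55 for stellate cell markers. The 1 tested adipocyte marker did not pass, the 1 tested pancreatic marker was lower, and Pnlip, Prss2 and Cela3b were at 0 in all 12 mice. The part of any of these cell types in the results above was not tested. Of the sex-linked genes, Eif2s3x, which escapes X inactivation, was lower in castrated mice (-0.38, SE 0.08), and Kdm6a was at 0.01 (SE 0.08).

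Finally, the response to castration was compared between XX and XY mice with testes, which share no library. By the quasi-likelihood test of edgeR, Benjamini-Hochberg adjusted, the log2 fold change was higher in XX mice for 87 genes (0.564%) and lower for 253 (1.64%). In total the difference passed for 340 genes (2.21%). This count rested on few libraries, since it was 4 without intact mouse 2, 49 without castrated mouse 2 and 6 in a fit of the 24 libraries alone. Of the 340, 70 were also changed by castration in XX mice. The fall of male-biased genes was smaller in XX than in XY mice for 10 of 17 major urinary proteins and 5 of 20 male-biased genes, and larger for none. Elovl3 fell by 3.49 in XX and by 5.93 in XY mice (difference 2.44, SE 0.51, adjusted p = 0.0203 by edgeR). For Mup20 the falls were 4.49 and 7.64 (difference 3.15, SE 0.81, adjusted p = 0.0302), and for Cyp4a12a 3.70 and 8.50 (difference 4.80, SE 1.06, adjusted p = 0.0229). The differences were 5.65 for Mup11, 4.67 for Mup1, 4.57 for Mup7, 4.45 for Mup14, 1.42 for Gstp1 and 1.49 for Cyp7b1. None of these 9 differences passed without intact mouse 2, although their values then lay between 1.37 and 5.42. The Cyp7b1 call was lost without any 1 of 7 mice (castrated mice 2, 4 and 5 and intact mice 1, 2, 4 and 6), that of Mup20 also without castrated mouse 2 or 4, and that of Mup1 also without castrated mouse 4.

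Levels at both ends entered these differences. Intact XX Te mice had a median of 4927 CPM of Mup20 against 13020 CPM in intact XY Te mice, and castrated XX Te mice 266 CPM against 37.2 CPM. For Cyp4a12a the medians were 47.0 and 98.7 CPM when intact and 0.837 and 0.283 CPM after castration. The genes with a lower log2 fold change in XX mice included Cxcl13 (-4.56), a B cell chemokine, and the myeloid cell receptors Fpr2 (-3.55) and Cd300e (-3.04). Hcar2 (-2.98), a receptor of ketone bodies and niacin, was another. In XX mice the changes of these 4 genes were -2.12, -1.98, -1.44 and -2.03, and in XY mice 2.44, 1.57, 1.60 and 0.95. Cxcl13 reached 13.4 CPM in intact XX mouse 2 and at most 1.78 CPM in castrated XX mice. Intact mouse 2 also had the highest sums of macrophage (1860 CPM, at most 676 CPM in the other intact mice), MHC class II (394 against at most 79.7 CPM), lymphocyte (32.5 against at most 15.0 CPM) and neutrophil markers (60.3 against at most 40.4 CPM), whose part was not tested. Without intact mouse 2 none of the 4 differences passed (-3.47, -2.53, -2.21 and -2.34). With the share of reads outside genes as a covariate, no gene differed between XX and XY mice in edgeR's test (2160 at an unadjusted p under 0.05).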

How the data were processed

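Liver RNA-seq libraries (Trizol RNA, KAPA mRNA HyperPrep) of 12 XX Te mice were compared, with the other 36 of the 48 libraries sharing the model. Per the labels and the processing notes, the authors aligned reads with STAR (version 2.7.10a) to GRCm39 and deposited whole-number counts per gene, not normalized. DESeq2 (version 1.36.0) is also named there. The annotation release and strand setting are not given in the sources used here, so overlapping genes on opposite strands cannot be told apart. The 4 summary lines of unassigned reads (28.9% to 32.8% of reads in these 12 libraries) were left out of totals and tests. The table has 55414 identifiers, of which 31020 had a symbol.

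CPM were computed from reads on genes, with totals scaled by the TMM factors. Counts were fitted with edgeR (version 4.0.16, R 4.3.3, TMM, filterByExpr, robust quasi-likelihood, Benjamini-Hochberg, 8 group means over 48 libraries, 15414 genes) and tested on simulated data. Single library values were compared by exact two-sided permutation tests. Mice were numbered within each group in accession order. Each edgeR p-value sets a difference between group means against a spread between mice, with 1 estimate per gene shared over the 8 groups. No 2 libraries of a group agreed within sampling noise. Intact mouse 5 has no Pnpla3 value in the study's source data and was kept (4910 genes passed without it). Alternatives used limma (version 3.58.1), DESeq2 (version 1.42.0), sva (version 3.50.0), a covariate, GC and length offsets from NCBIM37 (13077 genes, 84.8%), other filters and scalings, and leaving out each mouse. The 45 lists and their members were chosen with earlier results of these data known. Named genes were the 10 highest and 10 lowest non-overlapping calls, up to 3 highest and lowest of each list, any cell type marker, the 5 highest and lowest of each difference and a fixed set of sex-linked and GH pathway genes. Some genes that this rule names are not reported here.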

Additional observations from a re-analysis of the deposited data

Results flagged for a closer look

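Mice apart from the other 5 of their group were searched for in 66 groups of 6 values with Dixon's test, of which 8 held a mouse apart, and chance alone sets about 1 in 20 apart. They were intact mouse 1 for Mup20 (999 CPM, the lowest), intact mouse 2 for Prlr (66.8 CPM, the lowest), and castrated mouse 4 for Elovl3 (21.6 CPM) and Alas2 (65.4 CPM, both the highest). Intact mouse 4 was the highest for the Y-linked genes Uty (2.10 CPM), Ddx3y (4.19 CPM), Eif2s3y (4.26 CPM) and Kdm5d (1.08 CPM), and the source of these Y-linked reads was not tested.

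The effect of castration in XX Te mice differed from that of ovariectomy in XX Ov mice for 144 genes, by edgeR's quasi-likelihood test of the difference. Among the genes named here, the difference (castration minus ovariectomy, log2) was above 0 for Sult2a1 (8.19), Sult2a2 (8.52), Sult2a3 (8.08), Sult2a5 (8.71), Sult3a1 (6.70), Cyp2b13 (4.78), A1bg (5.33), Slc22a26 (4.31), Eci3 (4.22), Fmo2 (1.61), Cux2 (4.95), Prlr (1.14) and Hamp2 (3.54). It was below 0 for Cyp4a12a (-7.38), Cyp4a12b (-8.23), Slco1a1 (-4.89), Serpina1e (-3.72), Elovl3 (-3.79), Mup20 (-4.01), Mup-ps19 (-5.19), Bcl6 (-2.28), Cidea (-7.70), Cidec (-3.30), Pfkfb3 (-1.64), C4a (-2.47), C6 (-1.70) and Alas2 (-1.58).

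The effect also differed from that of castration in XY Te mice for 340 genes by the same test, a count that fell to 4 without intact mouse 2. Among the genes named here, the difference (XX minus XY, log2) was above 0 for Cyp4a12a (4.80), Elovl3 (2.44), Mup1 (4.67), Mup7 (4.57), Mup11 (5.65), Mup14 (4.45), Mup20 (3.15), Cyp7b1 (1.49) and Gstp1 (1.42). It was below 0 for Cxcl13 (-4.56), Fpr2 (-3.55), Cd300e (-3.04) and Hcar2 (-2.98).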

How the results depend on the processing

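The castration effect (5718 genes) stayed within 1.5 times of its count under DESeq2's size factors, library totals, the DESeq2 Wald test, limma with weights per group, both other filters, the 12 libraries alone, 1 surrogate variable, the GC and length offsets and leaving out any of the 12 mice (4649, without intact mouse 4, to 6285, without intact mouse 1). It was 954 with the share of reads outside genes as a covariate, 615 in a test against a fold of 1.5 (393 higher, 222 lower) and 3331 with a fold above 1.5. The difference from ovariectomy (144) was 235 by DESeq2, 83 with at least 10 counts, 65 by limma, 91 without the filter, 49 against a fold of 1.5, and 102 to 169 with a mouse left out. The difference from XY castration (340) was 621 by DESeq2, 608 with the offsets, 57 by limma, 191 without the filter (20 higher), 6 in its own libraries, and 0 with the covariate or against a fold of 1.5 in edgeR (2160 and 931 at an unadjusted p under 0.05). Leaving out a mouse gave 4 (intact mouse 2) to 472, with 49, 152 and 146 without castrated mice 2, 4 and 5. Library totals gave 29 higher and 455 lower, 1 surrogate variable 186 and 318. Left-out mice gave 4.61 to 4.93 points for reads outside genes, 975.5 to 1347 for genes detected and -2313000 to -1358000 for reads on genes, where the difference passed without castrated mouse 3 only (p = 0.0325, exact permutation test).

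Of the 78 named genes that differed with castration, DESeq2 kept 78, 1 surrogate variable 77, library totals 75, limma 66 and the offsets 66 of 73. The covariate kept 10 and turned 10 in sign, namely Ghr (0.012), Stat5b (-0.38), Akr1c6 (1.13), Cidea (0.17), Fabp1 (0.55), Apoc1 (0.94), Apob (-0.54), Manf (0.087), Ndufa4 (1.49) and Rpl34 (1.43). The cause was not tested. Genes under about 1 CPM rest on few reads per mouse. No paired analysis was possible because the labels give each mouse its own identifier and no shared number.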
